A study of Rattus norvegicus with 12 samples.

Results

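The numbered Zfp genes are the rows of a rat brain RNA sequencing table whose name is Zfp followed only by digits. Of 164 such rows, 148 had a raw read count of at least 100 in each of 12 libraries, and these 148, of 17337 rows in all, are described here. The members were chosen by their measured read counts, so that a high level is part of the choice and not a finding, and a row that fell far enough in 1 group to drop under 100 counts was left out. The 16 rows left out included Zfp352, which was listed at 0 in every library. Just inside the minimum lay Zfp53 and Zfp455, each with a lowest count of 117, then Zfp655 with 133, Zfp707 with 135 and Zfp438 with 170. Just outside lay Zfp52 with a lowest count of 95, Zfp217 with 83, Zfp418 with 64, Zfp978 with 48 and Zfp51 with 44.

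The libraries came from whole-tissue brain RNA, called middle brain in the series, of male Sprague-Dawley rats at postnatal day 60, with 3 rats in each of 4 groups. Sham rats were the controls. Other rats had their bile duct tied (bile duct ligation, BDL), which blocks bile flow, scars the liver and can impair the brain, and were studied 4 weeks later: without a vector, with an adeno-associated virus carrying green fluorescent protein (AAV-GFP), or with one carrying VEGFC, which drives the growth of lymphatic vessels (AAV-VEGFC). The ligation was shared by all groups but sham. Both vectors were injected in 20 µl into the cisterna magna, the fluid space below the cerebellum, and the sources used here name no injection for the other rats, no promoter of the transgenes and no time of injection. Vector, injection and any handling shared by the vector groups therefore cannot be told apart.

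Most numbered Zfp genes encode proteins with tandem C2H2 zinc fingers, short folds held by a zinc ion that read DNA sequence. The largest class adds a KRAB domain, which binds Trim28 (KAP1) and through it the histone methyltransferase Setdb1 and heterochromatin proteins, and silences transposable elements and imprinted loci. Others add a SCAN domain for pairing with one another, act as activators, or do not bind DNA at all: Zfp36 (tristetraprolin) has CCCH fingers and directs messenger RNAs with AU-rich elements to decay, and Zfp598 is a ubiquitin ligase at collided ribosomes. KRAB genes lie in clusters that arose by duplication, and in the brain zinc finger genes take part in neuron differentiation and the control of retroelements. The gene symbols are those of the deposited table, and 8 members now carry another RefSeq symbol: Zfp192 is Zkscan8, Zfp238 is Zbtb18, Zfp295 is Zbtb21, Zfp161 is Zbtb14, Zfp259 is Zpr1, Zfp167 is Zkscan7, Zfp498 is Zscan25 and Zfp191 is Zfp24.

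Totals ran from 40296297 to 51669067 counts per library, and all 148 members were among the 12850 rows tested. Markers of cortex and hippocampus summed to between 2680 and 4040 CPM (read counts scaled to library size) in every library, whereas markers of midbrain monoamine neurons summed to between 52.5 and 82.3 CPM. The dopamine and serotonin transporters Slc6a3 and Slc6a4 had a count of 0 in at least 1 library each and were too low to be tested, so that these defining markers of the midbrain do not bear out the label. Some libraries stood apart from their group: sham 2 in choroid plexus markers (268 CPM), AAV-GFP 1 in hypothalamic and pituitary markers (85.1 CPM), AAV-VEGFC 3 in the same markers (57.4 CPM) and AAV-VEGFC 1 in the share of reads on ribosomal protein rows (2.83%). Counts of called members are therefore also given without sham 2, AAV-GFP 1 and AAV-VEGFC 1, a choice made with these data known that kept AAV-VEGFC 3. The tissue is bulk, so that fewer cells of a type and less RNA per cell cannot be told apart.

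The members as a group stood lower in the 6 libraries with a vector than in the 6 without. Their summed level lay between 5346 and 5648 CPM in the sham and BDL libraries and between 4762 and 4968 CPM in the AAV-GFP and AAV-VEGFC libraries, with no overlap. For 48 of the 148 members (32.4%) all 6 vector libraries lay below all 6 others, against 10.4% of all tested rows and 11.6% of the 10257 tested rows with at least 100 counts in every library, which are the rows that meet the same count minimum. The opposite order, all 6 vector libraries above the others, was seen for 2 members, Zfp428 and Zfp637, or 1.35%, against 7.92% of all tested rows. This split was looked for after the values had been seen and is given as a description.

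**Figure D1:**
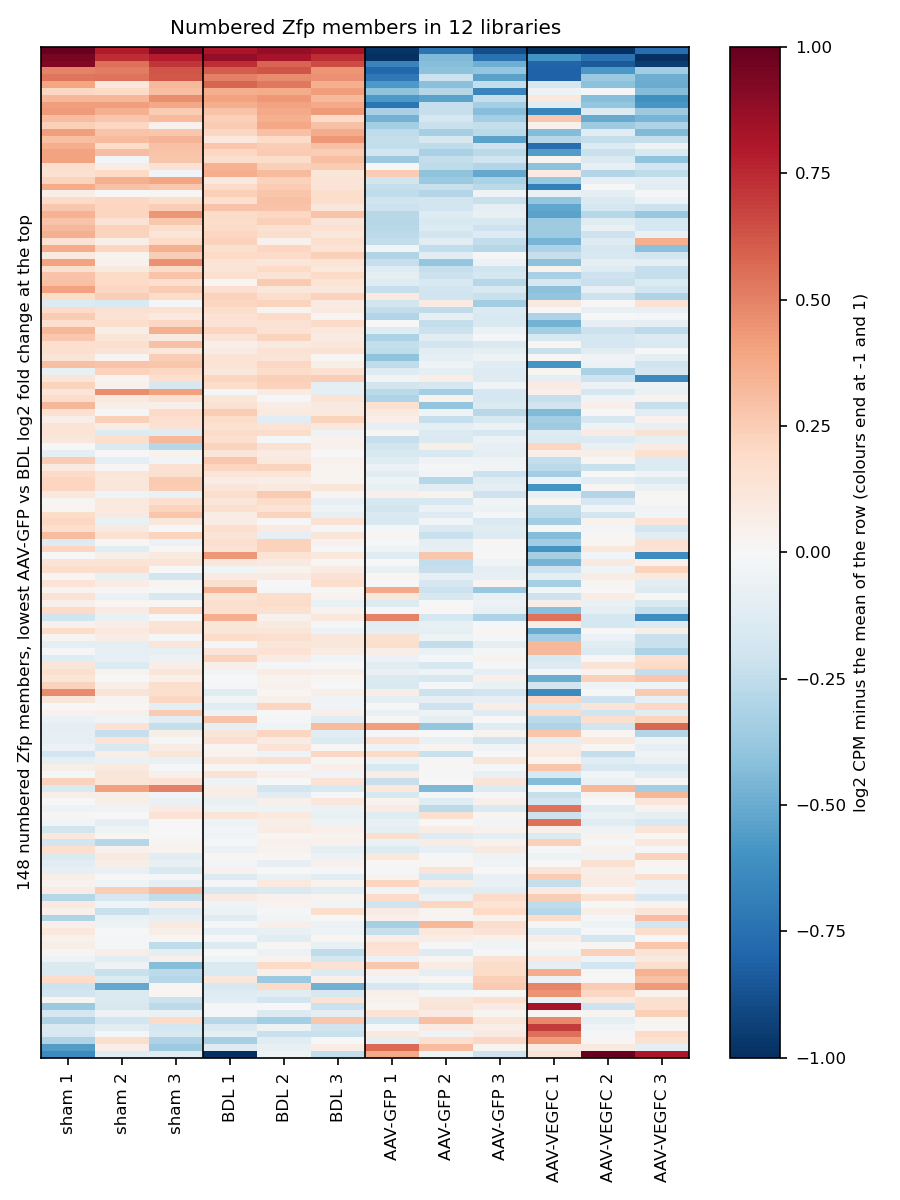
Each row is 1 of the 148 numbered Zfp members and each column 1 of the 12 libraries, with colour giving log2 CPM minus the row's mean over the 12 libraries (red above, blue below, colours ending at −1 and 1) and rows ordered by the AAV-GFP vs BDL log2 fold change. The upper rows are red in the 6 sham and BDL libraries and blue in the 6 vector libraries, and most of the lower rows show little contrast between the groups.

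Ligation without a vector was compared with sham first. No member passed the test, at an adjusted p under 0.05 by edgeR's quasi-likelihood test over all 12850 rows. In that test 0.109% of all tested rows and 0.0487% of rows with at least 100 counts in every library passed in either direction. DESeq2 and limma voom each called 1 member, lower in BDL, where 0.366% and 1.79% of all tested rows were lower. At an unadjusted p under 0.05 there were 5 members (3.38%, against 5.9% of all tested rows): Zfp180, Zfp61, Zfp90, Zfp105 and Zfp94. The median log2 fold change of the members was −0.01, beside 0.008 over all tested rows, and the groups did not overlap for 18 members in the lower direction (12.2%, against 12.4% of all tested rows and 13.9% of rows with at least 100 counts in every library) and 17 in the higher direction (11.5%, against 12.6% and 12.9%). These shares lay near the background.

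Zfp180 had the smallest p of the members in that comparison. Its level was 229, 258 and 271 CPM in the sham libraries and 194, 196 and 202 CPM in the BDL libraries, while the AAV-GFP libraries had 213, 200 and 202 CPM and the AAV-VEGFC libraries 230, 214 and 210 CPM. All 3 BDL libraries lay below the lowest sham library, and so did 5 of the 6 vector libraries. The log2 fold change of BDL against sham was −0.36 ± 0.07 (SE) with an adjusted p of 0.192. The call was made by DESeq2 (adjusted p = 0.000561), by limma voom (0.00679), with the 2 groups fitted alone (0.0246), without AAV-VEGFC 1 (0.0387) and without sham 2, AAV-GFP 1 and AAV-VEGFC 1 (0.0397). In that order, 0.366%, 1.79%, 1.89%, 0.347% and 1.13% of all tested rows were lower in these fits. In the main fit 0.0156% were. Zfp61 had a log2 fold change of −0.35 (adjusted p = 0.505), and Zfp90, Zfp105 and Zfp94 had 0.28, 0.27 and 0.20, with adjusted p of 0.8 or more.

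The vector was then compared with no vector in ligated rats. In AAV-GFP against BDL, 30 of the 148 members (20.3%) were lower and 0 were higher, whereas 5.2% of all tested rows and 5.65% of rows with at least 100 counts in every library were lower, and 0.988% and 1.11% were higher (6.19% and 6.77% in either direction). In AAV-VEGFC against BDL, 34 members (23%) were lower and 2 higher, against 7.02% and 7.84% of rows lower and 2.91% and 3.4% higher (9.93% and 11.2% in either direction). The median log2 fold change of the members was −0.169 with AAV-GFP and −0.151 with AAV-VEGFC, where the medians of all tested rows were 0.007 and 0.005. The sign was negative for 117 members with AAV-GFP (79.1%, against 48.9% of all tested rows) and for 111 with AAV-VEGFC (75%, against 49.3%). The groups did not overlap, with the vector lower, for 69 members with AAV-GFP (46.6%, against 20% of all tested rows and 21.3% of rows with at least 100 counts in every library) and 60 with AAV-VEGFC (40.5%, against 18.3% and 19.3%). The opposite order was seen for 7 members with AAV-GFP (4.73%, against 18.2% and 20.7%) and 10 with AAV-VEGFC (6.76%, against 14.6% and 16.5%). Both comparisons use the same 3 BDL libraries, so that their values are given side by side and do not support each other.

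**Figure D2:**
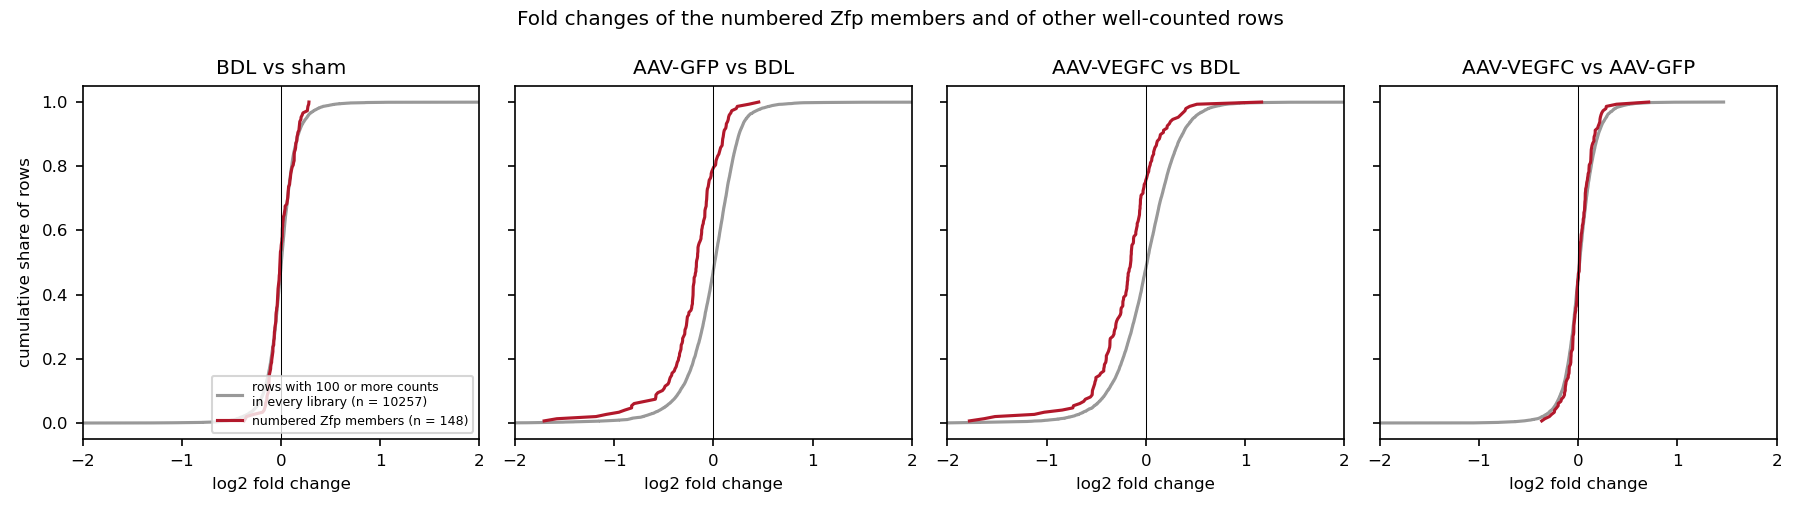
Each panel plots the cumulative share of rows (vertical axis, 0 to 1) against log2 fold change (horizontal axis, shown from −2 to 2) for the 148 members in red and the 10257 tested rows with at least 100 counts in every library in grey. The curves lie on each other for BDL vs sham and for AAV-VEGFC vs AAV-GFP, and the red curve lies to the left in both comparisons of a vector with BDL.

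The count of called members depended on single libraries. The share of all tested rows that were lower moved with it. In AAV-GFP against BDL the count was 15 without BDL 1 (2.74% of all tested rows lower), 14 without BDL 2 (2.85%), 16 without BDL 3 (3.18%), 15 without AAV-GFP 2 (2.91%) and 15 without AAV-GFP 3 (2.89%). It was 48 (47 lower) without AAV-VEGFC 1 (12.6% of all tested rows lower), a library that enters the common fit and not the 2 group means compared. Without sham 2, AAV-GFP 1 and AAV-VEGFC 1 together, 53 members passed, 49 of them lower, beside 15.6% of all tested rows lower in that fit. In AAV-VEGFC against BDL the count of 36 held 34 lower members. It was 22 without BDL 1 (3.9% of all tested rows lower) and 22 without BDL 2 (4.12%). Without BDL 3 it was 23 (4.54%), and in these 3 fits every called member was lower. Without sham 2, AAV-GFP 1 and AAV-VEGFC 1 together it was 51 (48 lower), beside 13.6% of all tested rows lower.

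A comparison whose group means share no library with those of AAV-GFP against BDL was added after the values had been seen: AAV-VEGFC against sham, in which ligation and vector differ together. There 48 members (32.4%) were lower and 3 higher, where 10.6% of all tested rows and 12.1% of rows with at least 100 counts in every library were lower, 7.98% and 8.97% were higher, and 18.6% and 21.1% passed in either direction. Of the 30 members lower in AAV-GFP against BDL, 28 (93.3%) were also lower in AAV-VEGFC against sham, which is 58.3% of its 48. Both comparisons come from 1 fit of all 12 libraries with a common estimate of the spread, so that their calls are not independent. Over all tested rows the shared rows numbered 569, or 85.2% of the 668 lower in AAV-GFP against BDL and 41.6% of the 1368 lower in AAV-VEGFC against sham. The 2 members called in AAV-GFP against BDL but not here were Zfp53 (adjusted p = 0.101) and Zfp94 (0.494). The count of 51 called members was 28 without sham 1 (5.62% of all tested rows lower) and 32 without sham 2 (7.18%). Without sham 3 it was 26 (5.9%), and in these 3 fits every called member was lower. Without sham 2, AAV-GFP 1 and AAV-VEGFC 1 together it was 58 (55 lower), beside 14.8% of all tested rows lower.

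Other rows moved with the vector groups as well. Of 9 rows listed for RNA composition and found in the table, 7 were lower in both comparisons with BDL: the long noncoding RNAs Snhg11 (log2 fold change −2.45 ± 0.17 with AAV-GFP) and Miat (−1.92 ± 0.18), Leng8 (−2.15 ± 0.16), the cyclins Ccnl1 and Ccnl2 and the splicing kinases Clk1 (−1.81 ± 0.28) and Clk4. The row for 18S ribosomal RNA, Rn18s, held 0.137 to 0.306% of reads in the libraries without a vector and 0.43 to 1.16% in those with one. The 89 tested ribosomal protein rows had a median log2 fold change of 0.27 with AAV-GFP and 0.6 with AAV-VEGFC. With AAV-GFP 1 of them was higher (1.12%) and 1 lower (1.12%), and with AAV-VEGFC 2 were higher (2.25%) and 1 lower (1.12%). Of all tested rows, 0.988% and 2.91% were higher and 5.2% and 7.02% lower. The share of reads on ribosomal protein rows was 2.83% in AAV-VEGFC 1, 1.26% in AAV-VEGFC 2 and 1.33% in AAV-VEGFC 3. In the BDL libraries it was 1.17 to 1.29%. Among cell markers, 2 of 4 endothelial and 2 of 5 pericyte and smooth muscle markers were higher in AAV-GFP against BDL, as was 1 of 7 of oligodendrocytes, and none of 6 neuronal, 6 astrocyte or 5 microglial markers passed. In AAV-VEGFC against BDL 3 of the 4 endothelial, 0 of the 5 pericyte and smooth muscle and 1 of the 7 oligodendrocyte markers were higher. Of 5 hypothalamic and pituitary markers 1 was higher, Pomc (1.72 ± 0.38, adjusted p = 0.0173). Again none of the neuronal, astrocyte or microglial markers passed. Of all tested rows, 0.988% were higher in the AAV-GFP comparison and 2.91% in the AAV-VEGFC comparison. Endothelial markers summed to between 155 and 171 CPM in sham, 168 and 215 in BDL, 279 and 303 with AAV-GFP and 287 and 342 with AAV-VEGFC. Pericyte and smooth muscle markers summed to between 60.8 and 75.3 CPM in sham, 62.9 and 90.7 in BDL, 93.1 and 120 with AAV-GFP and 90.9 and 109 with AAV-VEGFC. The part of RNA composition and of cell makeup in the members' values was not tested. Leaving Rn18s, Rn45s and the 20 most abundant rows out of the scaling gave 29 lower members in AAV-GFP against BDL and 34 in AAV-VEGFC against BDL. Of all tested rows, 5.15% and 7.03% were lower in that fit.

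The 5 members with the most negative log2 fold changes are described singly. Zfp958 was measured at 20.1, 15.8 and 17.5 CPM in the sham libraries, 16.1, 16.8 and 16.3 in the BDL libraries, 4.63, 5.51 and 4.93 in the AAV-GFP libraries and 4.41, 4.53 and 5.38 in the AAV-VEGFC libraries. The 6 vector libraries lay close together and far below the 6 others, among which sham and BDL overlapped. The BDL mean of 16.4 ± 0.353 CPM (SD, n = 3) was 3.26-fold the AAV-GFP mean of 5.02 ± 0.447 CPM, and the log2 fold change was −1.71 ± 0.12 (adjusted p = 3.43e-05) with AAV-GFP and −1.78 ± 0.12 (2.08e-05) with AAV-VEGFC.

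Zfp692, known as AREBP and described as a repressor of a gluconeogenic enzyme gene, lay at 22.6, 19.5 and 20.2 CPM in sham, 21.6, 20.7 and 19.5 in BDL, 5.07, 8.65 and 6.98 with AAV-GFP and 7.74, 6.98 and 5.21 with AAV-VEGFC. Here too the vector libraries stood clear of the others. Its log2 fold change was −1.58 ± 0.19 (adjusted p = 0.000526) with AAV-GFP and −1.63 ± 0.19 (0.000444) with AAV-VEGFC. In the RefSeq annotation Zfp692 overlaps Zfp672, another member, and without the strand of counting, reads from overlapping genes cannot be assigned with certainty. Zfp672 itself had −0.18 ± 0.10 (adjusted p = 0.33) and −0.19 ± 0.10 (0.22).

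Zfp192 (Zkscan8), with a SCAN and a KRAB domain, lay at 55.3, 42.7 and 47.8 CPM in sham, and in BDL at 48.7, 43.8 and 46 CPM. With AAV-GFP it lay at 18.5, 21.7 and 20.8 CPM, and with AAV-VEGFC at 16.8, 16.3 and 15.1 CPM, so that every AAV-VEGFC library was below every AAV-GFP library. The log2 fold change was −1.18 ± 0.10 (adjusted p = 8.33e-05) with AAV-GFP and −1.52 ± 0.10 (2.08e-05) with AAV-VEGFC. Zfp26 lay at 31.9, 32.2 and 35 CPM in sham, 34.4, 35 and 30.7 in BDL, 13.1, 17 and 17.3 with AAV-GFP and 12.9, 15.2 and 17.8 with AAV-VEGFC. Its log2 fold changes were −1.08 ± 0.13 (adjusted p = 0.000676) and −1.12 ± 0.13 (0.000531). Zfp397, a SCAN zinc finger gene, lay at 11.4 to 12.8 CPM in the 6 libraries without a vector and 4.74 to 7.17 CPM in the 6 with one, at −0.95 ± 0.14 (adjusted p = 0.00244) and −1.02 ± 0.14 (0.00135).

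**Figure D3:**
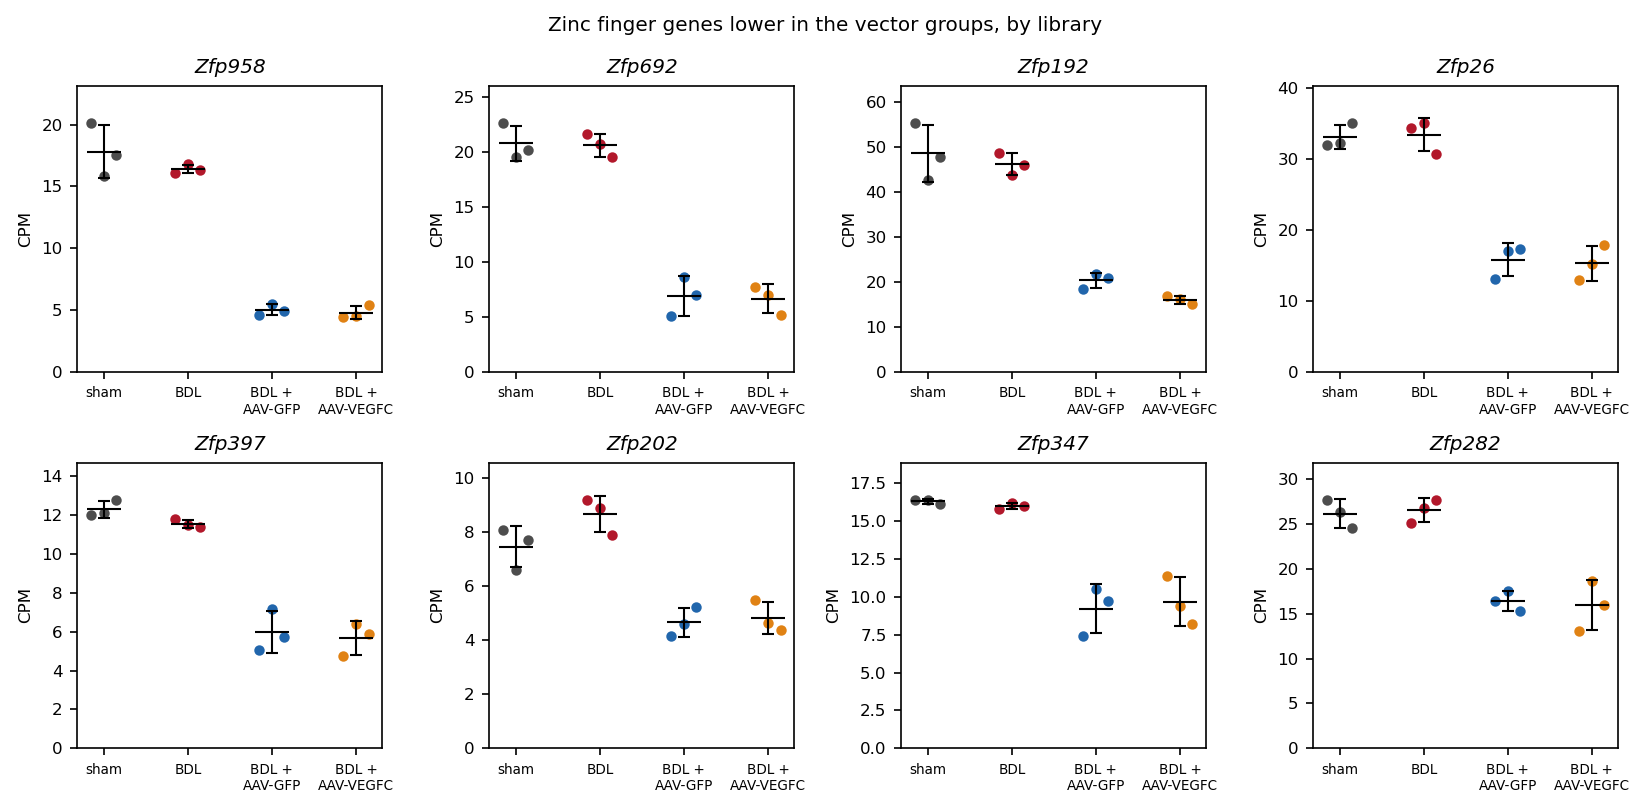
Each panel gives CPM (vertical axis, starting at 0) for 1 of 8 members in the 4 groups, with a point per library, a bar at the mean and whiskers of 1 SD (n = 3). In all 8 panels the 6 vector libraries lie below the 6 libraries without a vector.

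The sequence before these genes is shown for the 3 members with the largest falls and for Zfp36, the member with the largest rise, because members that moved together can be compared there. Each run is the RefSeq promoter window of the GRCr8 assembly, 250 bases before to 50 bases after the annotated start, on the strand of the gene and 5′ to 3′, and the deposited counts were made on rn6. Capitals mark matches on either strand to the ETS core CCGGAAG, the CCAAT box, the GC box GGGCGG or the core that Znf143 binds, and none of the motifs searched contains another. In the window of Zfp192 the ETS core matches on both strands at 1 place, so that its 2 matches overlap.
Zfp958, chr12:8750980-8751279, plus strand: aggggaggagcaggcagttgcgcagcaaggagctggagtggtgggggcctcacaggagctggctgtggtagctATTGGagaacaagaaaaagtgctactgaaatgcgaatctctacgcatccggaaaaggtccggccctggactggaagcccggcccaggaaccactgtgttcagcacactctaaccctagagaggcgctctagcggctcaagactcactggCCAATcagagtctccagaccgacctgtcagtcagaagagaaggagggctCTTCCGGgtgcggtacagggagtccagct
Zfp692, chr10:42988696-42988995, plus strand: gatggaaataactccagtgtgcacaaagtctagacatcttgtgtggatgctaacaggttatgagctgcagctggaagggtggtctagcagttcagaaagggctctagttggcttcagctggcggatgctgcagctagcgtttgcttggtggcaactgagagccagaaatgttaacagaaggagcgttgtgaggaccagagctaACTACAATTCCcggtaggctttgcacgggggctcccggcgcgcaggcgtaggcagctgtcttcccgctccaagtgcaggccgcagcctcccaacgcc
Zfp192, chr17:47734870-47735169, plus strand: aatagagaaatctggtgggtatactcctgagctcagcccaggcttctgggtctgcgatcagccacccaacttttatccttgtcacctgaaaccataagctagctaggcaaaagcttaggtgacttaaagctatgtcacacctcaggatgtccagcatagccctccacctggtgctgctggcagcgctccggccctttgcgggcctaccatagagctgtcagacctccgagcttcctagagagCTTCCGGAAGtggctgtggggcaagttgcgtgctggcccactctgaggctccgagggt
Zfp36, chr1:92799059-92799358, minus strand: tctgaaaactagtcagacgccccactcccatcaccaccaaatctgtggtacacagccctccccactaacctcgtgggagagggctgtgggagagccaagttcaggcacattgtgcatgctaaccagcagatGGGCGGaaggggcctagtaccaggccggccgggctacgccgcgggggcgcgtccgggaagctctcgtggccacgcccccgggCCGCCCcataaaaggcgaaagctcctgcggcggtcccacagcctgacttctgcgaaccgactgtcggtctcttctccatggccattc

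A single window was found for 118 members and for 24205 genes in all. Genes with more than 1 window, or with undetermined bases in it, were left out. The median GC content of the members' windows was 59.3%, against 52.7% in all windows, and the median count of CG dinucleotides was 18 against 8. The ETS core was found in 23.7% of the members' windows and 9.49% of all windows, the GC box in 50% and 35.9%, and the CCAAT box in 39% and 37.8%. Among members lower in AAV-GFP against BDL, 30.8% of 26 windows held the ETS core, against 21.7% of 92 windows of the other members. For the GC box the shares were 34.6% and 54.3%. The TATA box TATAAA was found in 8.47% of the members' windows and 14.3% of all windows, and the Znf143 core in 1.69% and 0.293%. The NRF1 core was found in 3.39% and 0.979%, the YY1 core in 2.54% and 0.884%, the CRE TGACGTCA in 2.54% and 1.91% and an SRF element in 0% and 0.0454%. A match is a stretch of letters and was not tested for binding.

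Among the other large falls, Zfp202, a SCAN and KRAB repressor of lipid metabolism genes, lay at 6.62 to 9.21 CPM without a vector and 4.15 to 5.5 CPM with one. Its log2 fold change was −0.89 ± 0.14 (adjusted p = 0.00322) with AAV-GFP and −0.84 ± 0.14 (0.0037) with AAV-VEGFC. Zfp347 lay at 15.8 to 16.4 CPM without a vector and 7.41 to 11.4 CPM with one, with −0.80 ± 0.14 (0.0062) and −0.73 ± 0.14 (0.00789). Zfp282 (HUB1), a KRAB repressor first described by its binding to a retroviral terminal repeat, lay at 24.5 to 27.7 CPM against 13.1 to 18.7 CPM, with −0.69 ± 0.12 (0.00551) and −0.74 ± 0.12 (0.00305). None of these 3 ranges overlapped between libraries with and without a vector.

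Zfp263 had log2 fold changes of −0.58 ± 0.11 and −0.61 ± 0.11, and Zfp40 of −0.58 ± 0.11 and −0.51 ± 0.11, all passing. Zfp53, the member with the lowest mean level, lay at 4.68, 4.72 and 4.86 CPM in BDL, 2.75, 2.99 and 2.31 with AAV-GFP and 3.51, 3.59 and 2.7 with AAV-VEGFC. Its libraries did not overlap between BDL and either vector. It passed with AAV-GFP (−0.82 ± 0.16, adjusted p = 0.0103; 0.0528 without AAV-GFP 3) and not with AAV-VEGFC (−0.54 ± 0.16, 0.052). Zfp455 passed in both (−0.82 ± 0.19, adjusted p = 0.0256, and −0.67 ± 0.19, 0.0469), but the RefSeq annotation has 5 genes overlapping it, zinc finger genes among them, and its call with AAV-GFP was lost without BDL 1, BDL 2, BDL 3, AAV-GFP 1 or AAV-GFP 2, with adjusted p of at most 0.0991, and that with AAV-VEGFC in 10 of 12 fits without 1 library (at most 0.128). The other 18 lower members had log2 fold changes with AAV-GFP between −0.56 (Zfp800) and −0.28 (Zfp157). They included Zfp142 (−0.50 ± 0.09), linked to a human neurodevelopmental disorder, and Zfp384 (−0.42 ± 0.08), a factor of bone matrix genes also called NMP4; each was lost in 2 of 12 fits without 1 library (BDL 2 and AAV-GFP 2 for Zfp142, BDL 2 and AAV-GFP 3 for Zfp384).

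Calls that held in every alternative fit and without any 1 library numbered 10 of 30 in AAV-GFP against BDL: Zfp192, Zfp202, Zfp26, Zfp263, Zfp282, Zfp347, Zfp397, Zfp40, Zfp692 and Zfp958. In AAV-VEGFC against BDL they numbered 9 of 36: Zfp192, Zfp202, Zfp26, Zfp275, Zfp329, Zfp347, Zfp397, Zfp692 and Zfp958. In AAV-VEGFC against sham they numbered 17 of 51. The share of calls that held in this way over all tested rows was not computed. The 3 members higher in AAV-VEGFC against sham were Zfp36, Zfp867 and Zfp358. Zfp867 lay at 9.22, 8.77 and 8.53 CPM in sham and 13.2, 10.3 and 13 with AAV-VEGFC (0.46 ± 0.12, adjusted p = 0.0262), and Zfp358 at 23.3, 27.3 and 27.1 CPM and 32.6, 28.4 and 35.5 CPM (0.31 ± 0.09, 0.0391), without overlap. Without 1 library the call was lost in 10 of 12 fits for Zfp358 (all but those without AAV-VEGFC 1 or AAV-VEGFC 2; adjusted p of at most 0.165), in 8 for Zfp36 (at most 0.145) and in 4 for Zfp867 (without sham 1, sham 2, sham 3 or AAV-VEGFC 3; at most 0.092). That of Zfp867 was also lost without sham 2, AAV-GFP 1 and AAV-VEGFC 1 together (0.0868), and all 3 were lost with the compared groups alone. Zfp329 had log2 fold changes of −0.39 ± 0.09 with AAV-GFP and −0.63 ± 0.09 with AAV-VEGFC, and Zfp275, which passed with AAV-VEGFC (−0.52 ± 0.09), had −0.31 ± 0.09 with AAV-GFP (adjusted p = 0.0662). The difference between the vectors is the subject of the next comparison.

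AAV-VEGFC against AAV-GFP asks what the growth factor adds to a vector. No member passed, where 0.00778% of all tested rows and 0% of rows with at least 100 counts in every library did, and 12 members (8.11%, against 4.37% of all tested rows) had an unadjusted p under 0.05. DESeq2 and limma voom also called 0. The median log2 fold change of the members was 0.011, beside 0.013 over all tested rows. The smallest p belonged to Zfp192 (−0.34), Zfp365 (0.24), Zfp329 (−0.24), Zfp775 (0.22) and Zfp346 (−0.22), each with an adjusted p of 0.948. Without sham 2, AAV-GFP 1 and AAV-VEGFC 1 together, 5 members passed. Of these, 2 were lower, where 4.41% of all tested rows were lower: Zfp192 (−0.43, adjusted p = 0.0218) and Zfp238 (−0.37, 0.0141). The 3 higher were Zfp36 (1.14, 0.0498), Zfp365 (0.25, 0.024) and Zfp703 (0.31, 0.0302). That fit leaves 2 libraries in each vector group and in sham.

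Members with a known role were taken by role. In mRNA decay, Zfp36 lay at 6.76, 9.68 and 9.66 CPM in sham, 4.92, 10.2 and 8.86 in BDL, 13.7, 10.2 and 9.08 with AAV-GFP and 11.5, 24 and 18.4 with AAV-VEGFC. The AAV-VEGFC libraries were above all BDL libraries and overlapped those with AAV-GFP in 1 library, AAV-GFP 1. Its log2 fold change against BDL was 1.17 ± 0.31 (adjusted p = 0.0367) with AAV-VEGFC and 0.46 ± 0.31 (0.445) with AAV-GFP. The call with AAV-VEGFC was lost without 1 library in 9 of 12 cases (all but sham 1, AAV-GFP 1 and AAV-VEGFC 1), with adjusted p of at most 0.122, and with the 2 groups fitted alone (0.148). Zfp36 also had the widest range of log2 CPM over the 12 libraries, 2.28, followed by Zfp958 (2.17), Zfp692 (2.15), Zfp192 (1.87) and Zfp26 (1.44). The median range of the members was 0.58, and the narrowest were Zfp523 and Zfp746 (0.26 each), Zfp426 (0.27), Zfp259 and Zfp422 (0.28 each).

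Among ubiquitin ligases and translation genes, Zfp598 was lower with both vectors: 38, 39.4 and 37.4 CPM in BDL, 33.4, 28.7 and 27.8 with AAV-GFP and 27.4, 30.2 and 25.4 with AAV-VEGFC. The log2 fold changes were −0.35 ± 0.09 (adjusted p = 0.0432) and −0.47 ± 0.09 (0.00838). No vector library reached the BDL libraries. The call with AAV-GFP was lost in 8 of 12 fits without 1 library (all but those without AAV-GFP 1 or an AAV-VEGFC library), with adjusted p of at most 0.174. Zfp91, a ligase that acts on a kinase of the NF-kB pathway, is the member with the second highest level and had log2 fold changes of 0.09 ± 0.10 in both, and Zfp706 had −0.07 ± 0.11 and −0.02 ± 0.11. Zfp622, a ribosome assembly factor under the count minimum, had 1.05 ± 0.37 (adjusted p = 0.132) and 1.03 ± 0.37 (0.0994).

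Among RNA-binding members, Zfp638 (NP220), which silences unintegrated viral DNA together with the HUSH complex, lay at 169, 166 and 173 CPM in BDL, 141, 130 and 134 with AAV-GFP and 121, 131 and 128 with AAV-VEGFC. The vector libraries stood below all BDL and sham libraries. The log2 fold changes were −0.33 ± 0.06 (adjusted p = 0.0103) and −0.42 ± 0.06 (0.0021), and the first call was lost without BDL 3, AAV-GFP 2 or AAV-GFP 3 (adjusted p of at most 0.0583). Zfp346, which binds double-stranded RNA, had −0.14 ± 0.09 (0.388) with AAV-GFP and fell with AAV-VEGFC (−0.36 ± 0.09, 0.0236; lost without BDL 1 or BDL 2). Zfp207 (BuGZ), a partner of the spindle checkpoint protein Bub3, had −0.20 ± 0.07 (0.138) and fell with AAV-VEGFC (−0.37 ± 0.07, 0.00752). Neither differed between the vectors by the test above.

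Of 7 chromatin and co-repressor partners in the table, 6 of them members, none passed in either comparison with BDL. Zfp281, a partner of the NuRD complex, had −0.44 ± 0.14 (adjusted p = 0.0904) and −0.42 ± 0.14 (0.0707), and fell in AAV-VEGFC against sham (−0.54, 0.0205; lost without sham 1, sham 2 or sham 3, at most 0.0834, and with the compared groups alone, 0.122), and Zfp644, a partner of the methyltransferase G9a, −0.20 ± 0.13 and −0.30 ± 0.13. Zfp451, a SUMO ligase, had −0.30 ± 0.10 and −0.23 ± 0.10. Zfp410, an activator of the NuRD subunit gene Chd4, had 0.00 ± 0.08 and 0.04 ± 0.08, Zfp516 had −0.21 ± 0.13 and −0.25 ± 0.13, and Zfp653 had −0.11 ± 0.10 and 0.06 ± 0.10. The log2 fold change of Zfp217 was −0.18 ± 0.26 and −0.51 ± 0.26, but this row lies under the count minimum. Of the 2 Zmynd8 partners in the table, Zfp592 fell with both vectors (−0.37 ± 0.08, adjusted p = 0.0178, and −0.36 ± 0.08, 0.0154), the first lost in 5 of 12 fits without 1 library (BDL 1, BDL 2, BDL 3, AAV-GFP 1 or AAV-GFP 3) and the second in 2 (BDL 1 or BDL 2). Zfp532 had −0.29 ± 0.10 (0.122) with AAV-GFP and fell with AAV-VEGFC (−0.36 ± 0.10, 0.0419; lost in 8 of 12 fits without 1 library).

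Of 6 members linked to neuron development, Zfp483 fell with both vectors. It lay at 113, 105 and 106 CPM in BDL, 89.1, 74.6 and 72.7 with AAV-GFP and 66.8, 84.1 and 78.1 with AAV-VEGFC, at −0.46 ± 0.10 (adjusted p = 0.0186; lost without BDL 1, BDL 2, BDL 3, AAV-GFP 2 or AAV-GFP 3) and −0.50 ± 0.10 (0.00866). Zfp292, mutated in human neurodevelopmental disorders, lay at 100, 97.9 and 101 CPM in BDL, 69.4, 69.2 and 71.4 with AAV-GFP and 48.5, 75 and 79.6 with AAV-VEGFC. Both vector groups lay below all BDL libraries and overlapped each other, and the adjusted p was 0.0611 with AAV-GFP (−0.51 ± 0.14) and 0.0326 with AAV-VEGFC (−0.56 ± 0.14; lost in 6 of 12 fits without 1 library). Zfp365, a partner of DISC1 with the highest mean level of all members, was the other member higher with AAV-VEGFC. It lay at 351, 367 and 357 CPM in BDL, 395, 341 and 365 with AAV-GFP and 460, 405 and 433 with AAV-VEGFC, where every library was above every BDL library.

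The log2 fold change of Zfp365 with AAV-VEGFC was 0.27 ± 0.07 (adjusted p = 0.0396), and it was lost in 8 of 12 fits without 1 library, with adjusted p of at most 0.138. Against sham, at 401, 383 and 379 CPM, it was 0.16 ± 0.07 (0.149). Zfp238 (RP58), a repressor needed for cortical neuron differentiation, had 0.09 ± 0.14 and −0.08 ± 0.14, and its AAV-GFP libraries spread from 181 to 287 CPM. Zfp423, which acts in cerebellar development, had −0.13 ± 0.27 and −0.18 ± 0.27, and Zfp521 0.36 ± 0.17 and 0.07 ± 0.17, none of which passed. Of the 2 imprint regulators, Zfp445 fell with AAV-VEGFC (−0.28 ± 0.08, adjusted p = 0.0452; lost in 9 of 12 fits without 1 library), and Zfp57 had −0.22 ± 0.13 and −0.32 ± 0.13.

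**Figure D4:**
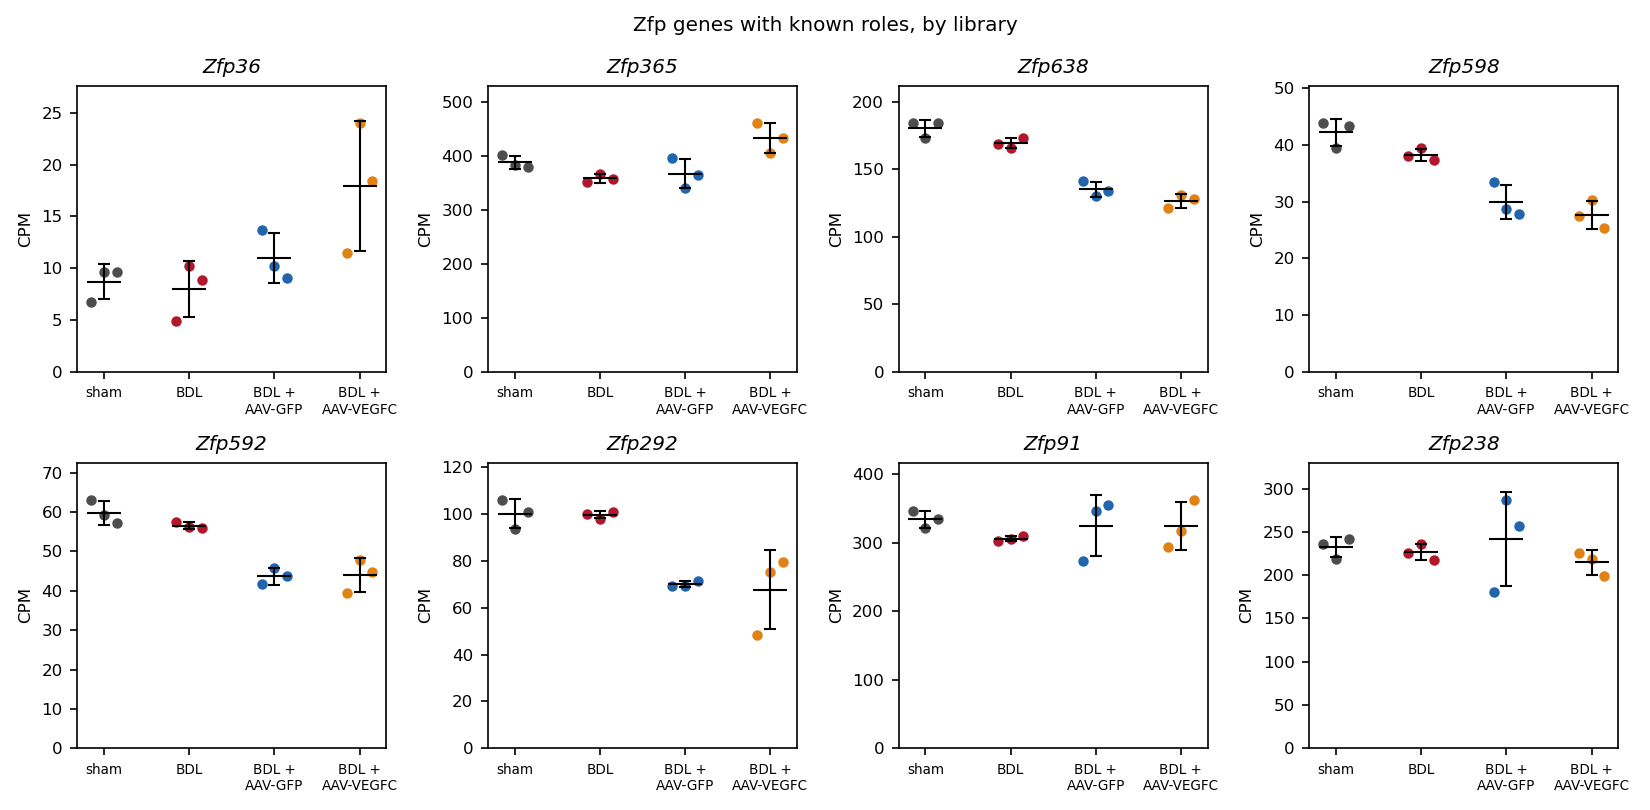
Each panel gives CPM (vertical axis, starting at 0) for 1 of 8 members with a known role in the 4 groups, with a point per library, a bar at the mean and whiskers of 1 SD (n = 3). Zfp36 and Zfp365 are highest on average with AAV-VEGFC, Zfp638, Zfp598, Zfp592 and Zfp292 are lower in the 6 vector libraries, and Zfp91 and Zfp238 overlap between groups.

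The co-repressor genes through which KRAB zinc fingers act were read from a list of 33, of which 25 were in the table. In AAV-GFP against BDL 0 were higher and 3 lower (12%), where 0.988% of all tested rows were higher and 5.2% lower. The 3 were Setdb1 (−0.40 ± 0.07, adjusted p = 0.00666), the ATPase Morc3 (−0.39 ± 0.07, 0.0101) and the chromatin remodeller Smarcad1 (−0.39 ± 0.08, 0.0163). In AAV-VEGFC against BDL the same 3 fell, with the DNA methyltransferase Dnmt3a (−0.62 ± 0.17, 0.045) and the histone methyltransferase Suv39h2 (−0.43 ± 0.09, 0.013). These 5 are 20% of the list, and 7.02% of all tested rows were lower. Trim28, the scaffold that KRAB domains bind, had −0.01 ± 0.07 and −0.03 ± 0.07, and lay at 150 to 154 CPM in sham and 143 to 173 CPM in the other groups. The median of the 25 was −0.064 with AAV-GFP and −0.072 with AAV-VEGFC, beside 0.007 and 0.005 over all tested rows.

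Zinc finger rows outside the member rule were compared in the same way. Of 89 such tested rows, 10 (11.2%) were lower and 1 (1.12%) higher in AAV-GFP against BDL, with a median of −0.205. With AAV-VEGFC 11 (12.4%) were lower and 2 (2.25%) higher, with a median of −0.16. Of all tested rows, 5.2% and 7.02% were lower and 0.988% and 2.91% higher, with medians of 0.007 and 0.005. Among them, 6 of 15 Zfp rows with a letter after the number (40%) and 4 of 35 Zbtb rows (11.4%) were lower with AAV-GFP. Of 15 Klf rows 0 were lower and 1 (6.67%) was higher. The 13 tested numbered Zfp rows under the count minimum had a median of −0.343 with AAV-GFP, but 0 passed. No test of a difference between these lists and the members was made.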

How the data were processed

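Per the labels, brains were flash frozen, RNA was extracted using Trizol, and the library kit was TruSeq RNA. Per the submitters' processing notes, FastQC, Trimmomatic 0.36, HISAT2 and featureCounts were used on rn6. Their settings, the annotation and the strandedness were not given in the sources used here. Deposited values are the authors' raw read counts by gene symbol: 11 single-library files equal their columns in a table of 12 libraries, and 0 columns were left unused.

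R 4.3.3 with edgeR 4.0.16 kept rows with filterByExpr (12850), computed TMM factors and fitted 1 quasi-likelihood model with a mean per group. SE came from the fold change and its F statistic, and the Benjamini-Hochberg adjusted p threshold was 0.05 over all tested rows. CPM values were computed from the deposited counts, scaled to the library size over the kept rows times the TMM factor. Alternatives used DESeq2 1.42.0, limma 3.58.1 voom, other filters and scalings, fits of the compared groups alone, a replicate block and each library left out. The analysis was tested on simulated data. Figures used matplotlib 3.10.9 under Python 3.11.15.

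The members and lists were chosen with earlier results of these data known, so that no list count is independent evidence. AAV-VEGFC against sham was added after seeing the data. Genes named were up to 12 called members per direction with the largest change (the 5 smallest p where fewer than 5 passed), the role lists, the 5 on each side of the count minimum and the 5 widest and narrowest ranges. Others, such as Zfp275, Zfp329, Zfp142, Zfp384, Zfp672, Zfp428, Zfp637, Zfp703 and Zfp157, were named after their values were seen. Promoters and neighbours came from RefSeq (GRCr8), where 140 members matched by symbol and 8 by an older one. Protein sequences were not used here. The sources name separate rats but no batch, day or order of extraction. The p-values of the main fit rest on the spread within groups, pooled over all 4 groups of 3 libraries.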

Additional observations from a re-analysis of the deposited data

How the results depend on the processing

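Over all fits run, the median log2 fold change of the members stayed between −0.193 and −0.141 in AAV-GFP against BDL, −0.187 and −0.136 in AAV-VEGFC against BDL, −0.199 and −0.156 in AAV-VEGFC against sham and −0.023 and 0 in BDL against sham, and no called member reversed. The counts of called members moved more, and the cause was not tested. Fits that leave some libraries out also hold a smaller number of libraries. For BDL against sham (0), DESeq2, limma voom, the compared groups alone and the fit without sham 2, AAV-GFP 1 and AAV-VEGFC 1 each gave 1, and leaving out 1 library gave 0 to 1. In those first 4 fits 0.366%, 1.79%, 1.89% and 1.13% of all tested rows were lower. For AAV-GFP against BDL (30), limma voom gave 64 (61 lower), where 19.4% of all tested rows were lower. The fit without those 3 libraries gave 53 (49 lower), beside 15.6% of all tested rows lower. Leaving out 1 library gave 14 (2.85%) to 48 (47 lower, 12.6%). For AAV-VEGFC against BDL (36, with 7.02% of all tested rows lower), the compared groups alone gave 9, beside 2.39% of all tested rows lower. Leaving out 1 library gave 22 (3.9% without BDL 1) to 47 (44 lower, 10.1% without AAV-VEGFC 1). For AAV-VEGFC against AAV-GFP (0), the fit without the 3 libraries gave 5 (2 lower, beside 4.41% of all tested rows lower) and leaving out 1 library 0 to 0. For AAV-VEGFC against sham (51, with 10.6% of all tested rows lower), the compared groups alone gave 17, beside 4.31% of all tested rows lower. Leaving out 1 library gave 26 (5.9% without sham 3) to 56 (53 lower, 12.5% without AAV-VEGFC 1).

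Replicate numbers did not pair the libraries: deviations of same-numbered libraries correlated between −0.0692 and 0.0686. With the replicate block the counts were 0, 22, 28 (27 lower), 0 and 35 (33 lower) in the order above. The shares of all tested rows lower were 0.0156%, 3.79%, 5.44%, 0% and 8.56%. Between pairs of libraries of a group, the chi-square per degree of freedom over all rows ran from 11.1 to 214, more than counting error alone gives. What limits the calls with 3 libraries per group was not tested.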

Other observations

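Members often lie beside a gene with a zinc finger name, and less often beside another member, which was the next gene for 31 of 148. In the GRCr8 annotation 64 of 148 (43.2%) have a gene with a zinc finger name as the next protein-coding gene, against 3.58% of 23154 protein-coding genes. The share was 15 of 30 (50%) for members lower in AAV-GFP against BDL and 49 of 118 (41.5%) for the others. Another gene overlaps 62 members (41.9%), and for these the source of the reads is uncertain without the strand of counting, as it is for members with near-identical copies. The share of all genes with such an overlap was not computed.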
